A study of Mus musculus with 8 samples.

Results

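The genes described here encode the glutathione S-transferases, UDP-glucuronosyltransferases and cytosolic sulfotransferases, enzymes that attach glutathione, glucuronic acid or sulfate to toxins, drugs, steroids and products of lipid oxidation. They were chosen by gene symbol and by a total of at least 10 counts over 8 mouse kidney libraries. The rule used no difference between groups, but it was set with earlier results of these data known. The rule gave 50 members of 19818 genes that reach that total: 24 glutathione transferases (GST, 3 of them microsomal), 19 UDP-glucuronosyltransferases (UGT) and 7 sulfotransferases (SULT). Of 65 protein-coding symbols of these families in the table, 15 stayed under the minimum, and 7 of those had 0 counts, all of them Sult2a or Sult3a symbols. After the edgeR filter on low counts 44 members were tested, and Gstm3, Sult2a8, Ugt1a5, Ugt2b1, Ugt2b35 and Ugt2b36 were too low to be tested.

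The libraries came from whole kidneys of adult male mice on a mixed 129S1/Sv x C57BL/6 background, 4 labelled CDH11-/- and 4 labelled CDH11+/+. Cdh11 encodes cadherin-11, through which mesenchymal cells adhere. All 8 mice had received aristolochic acid, a toxin from plants that injures the proximal tubule, at 3 mg/kg on each of 5 days, with kidneys taken 2 weeks after the last dose; no uninjured kidney was analysed here, so each difference is between labelled genotypes within the injured state. The title of the series speaks of Unx/AngII injury instead, and grouping went by the labels, which do not say how the Cdh11 allele was made or which part of the gene it removes.

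Conjugation makes reactive or fat-soluble molecules soluble enough to be exported into urine or bile. In the kidney many, but not all, of these enzymes are found in the proximal tubule, which takes up organic anions such as aristolochic acid from the blood. Glutathione conjugates that reach the lumen of the proximal tubule are trimmed there to mercapturates. Glucuronidation draws on UDP-glucuronic acid and takes place in the endoplasmic reticulum, while sulfation in the cytosol draws on the sulfate donor PAPS.

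Library totals were 12966177 to 18539479 counts for CDH11-/- and 10675309 to 13885009 for CDH11+/+. Cdh11 itself had 89.9 to 117 CPM (a count relative to library size, which was scaled by TMM, a correction for composition) in libraries labelled CDH11-/- and 58.0 to 75.6 CPM in libraries labelled CDH11+/+, with a log2 fold change of 0.69 ± 0.11 (standard error; adjusted p = 0.0243). The targeted gene was thus not lower under the CDH11-/- label, and every direction below is that of the labels. On the first principal component, which held 33.4% of the variance, the labels did not overlap. CDH11-/- libraries lay at -30.6 to -7.68 and CDH11+/+ libraries at 2.54 (replicate 1) to 39.6. CDH11+/+ replicate 1 stood apart on the second principal component, which held 22.6% of the variance. The cell type marker lists were chosen with earlier results of these data known. All 24 proximal tubule markers had negative log2 fold changes, CDH11-/- over CDH11+/+, with a median of -0.75 and 0 passing the adjusted threshold. Their summed level ranged from 4069 to 9353 CPM under CDH11-/- and from 4829 to 12923 CPM under CDH11+/+. In the same libraries 8 of 9 fibroblast and matrix markers, 7 of 7 endothelial and 8 of 8 macrophage markers had positive log2 fold changes, again with 0 passing. Negative log2 fold changes were found in 5 of 6 thick ascending limb markers (median -0.14) and 7 of 9 distal tubule and collecting duct markers (median -0.12). They were also found in 4 of 10 tubule injury markers (median 0.01) and 1 of 6 tested urothelium markers (median 0.42). In each of these lists 0 passed. In whole tissue, fewer cells of a type and less RNA per cell cannot be told apart, and the part of these shifts in the values below was not tested.

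Most of the transferase genes had lower mean expression in kidneys labelled CDH11-/-, and none passed the adjusted threshold. Of 44 tested members 31 had negative log2 fold changes (70.5%, against 52.2% of all 15852 genes tested), and their median was -0.22, against -0.01 over all genes. The edgeR quasi-likelihood test called 0 members lower and 0 higher at an adjusted p under 0.05, where it called 0.347% of all genes lower and 0.372% higher. At an unadjusted p under 0.05 there were 12 members lower and 0 higher, against 7.46% and 6.62% of all genes. The 4 CDH11-/- libraries lay wholly below the 4 CDH11+/+ libraries for 3 members, Gsta2, Ugt1a7c and Sult1c2, and wholly above for 0, against 3.74% and 3.59% of all genes.

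The number of members past the adjusted threshold depended on the tool and its settings. DESeq2 called 5 of 43 lower (Gsta1, Gsta2, Sult1c2, Ugt1a7c and Ugt2b38), and 0 higher, where it called 1.89% of all genes lower and 1.63% higher. Limma-voom with sample quality weights, which changes the tool and the weight of each library together, called Sult1c2 and Ugt1a7c lower and 0 higher, where it called 2.16% and 2.13% of all genes. Ugt1a7c and Gsta2 were called lower by edgeR without robust moderation (0.385% of all genes lower, 0.366% higher), and Ugt1a7c by edgeR with library size alone as scaling (0.328% lower, 0.429% higher). Without CDH11+/+ replicate 1, edgeR called Gstz1, Sult1c2 and Ugt1a7c lower, where it called 3.17% of all genes lower and 3.08% higher. Without CDH11+/+ replicate 3 it called Gsta1 and Gsta2, where it called 0.28% lower and 0.199% higher. All of these tools and settings called 0 members higher.

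**Figure D1:**
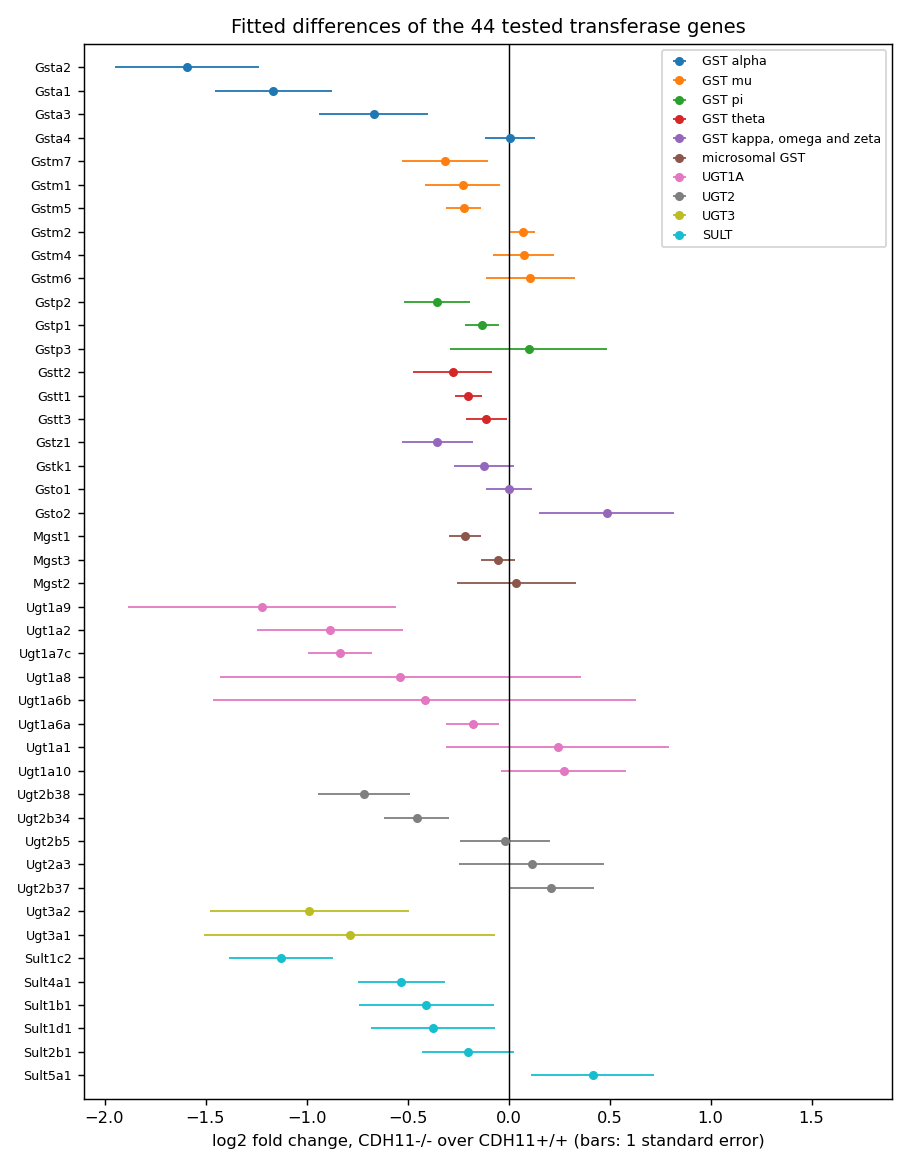
Log2 fold change (CDH11-/- over CDH11+/+) of each of the 44 tested members, grouped and coloured by class, with bars of 1 standard error. The lowest values, -1.59 for Gsta2, -1.22 for Ugt1a9, -1.16 for Gsta1 and -1.13 for Sult1c2, stand left of 0, and the highest, 0.49 for Gsto2, stands right of it.

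The alpha class, soluble enzymes that also reduce lipid hydroperoxides, had the lowest median log2 fold change of the GST classes, -0.92. Its 4 members summed to 99.8 ± 8.19 CPM under CDH11-/- and 205 ± 71.5 CPM under CDH11+/+ (SD, n = 4 each). Gsta1 (chr9:78230656-78242684, + strand) and Gsta2 (chr9:78331018-78355788, - strand) are close paralogs on chromosome 9 of GRCm38: 53.9% of the 50-base windows of Gsta1 transcripts and 49.8% of those of Gsta2 occur in other genes, mostly each other, so reads may have been divided between them in ways that the deposited counts do not show. Both had lower means under CDH11-/-, and the 250 bases before the RefSeq start of each are shown (GRCm38.p6, 5′ to 3′), with runs of at least 12 bases that occur in both in capitals; the window of Gsta1 is chr9:78230419-78230668 on the + strand and that of Gsta2 is chr9:78347146-78347395 on the - strand, inside its longer GENCODE gene model.
Gsta1: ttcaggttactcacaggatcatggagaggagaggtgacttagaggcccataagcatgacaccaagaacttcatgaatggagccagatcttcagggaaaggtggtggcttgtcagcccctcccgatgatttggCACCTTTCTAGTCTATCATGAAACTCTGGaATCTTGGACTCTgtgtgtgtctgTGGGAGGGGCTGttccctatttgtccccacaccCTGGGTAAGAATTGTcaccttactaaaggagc
Gsta2: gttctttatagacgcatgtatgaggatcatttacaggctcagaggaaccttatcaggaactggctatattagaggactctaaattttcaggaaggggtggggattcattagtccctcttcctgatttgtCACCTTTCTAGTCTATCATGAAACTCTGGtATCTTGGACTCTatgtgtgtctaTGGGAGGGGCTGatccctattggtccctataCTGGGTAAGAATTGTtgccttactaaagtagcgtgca
A global alignment of these windows had 184 identical bases in 239 aligned pairs (77.0%), with 22 gap positions, and 68 bases of each window lie in the shared runs, all of them in the part nearer the start.

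Gsta2 had 42.8, 41.4, 48.1 and 40.4 CPM in the CDH11-/- libraries, against 130, 201, 57.0 and 134 CPM in the CDH11+/+ libraries. The groups did not overlap: CDH11-/- values lay within a narrow band, and CDH11+/+ replicate 3 was the low one of its group. The log2 fold change was -1.59 ± 0.36 with an adjusted p of 0.130, and over 17 alternatives the adjusted p ran from 0.00123 to 0.298. Without CDH11+/+ replicate 3 it was 0.0029.

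Gsta1 had 6.31, 4.07, 5.75 and 4.85 CPM under CDH11-/-, against 10.7, 15.8, 5.78 and 14.8 CPM under CDH11+/+. Here too CDH11+/+ replicate 3 was low, and it lay among the CDH11-/- values, so the groups overlapped. The log2 fold change was -1.16 ± 0.29 (adjusted p = 0.116), with an adjusted p of 0.0142 without CDH11+/+ replicate 3 and a range of 0.00417 to 0.291 over 17 alternatives. With the counts of both genes added before the fit, a choice made after seeing the data, the sum averaged 48.4 ± 4.05 CPM under CDH11-/- and 142 ± 63.0 CPM under CDH11+/+ (SD, n = 4 each), and its log2 fold change was -1.55 ± 0.35 (adjusted p = 0.134).

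The other alpha members were Gsta3 and Gsta4. Gsta3, an alpha enzyme known in mice for conjugating the aflatoxin epoxide, had 20.7, 26.2, 17.6 and 13.6 CPM under CDH11-/- and 20.4, 41.7, 25.9 and 35.9 CPM under CDH11+/+, with overlapping groups and a log2 fold change of -0.67 ± 0.27 (adjusted p = 0.324). Gsta4, which conjugates hydroxynonenal, an aldehyde from oxidized lipids, averaged 31.9 ± 3.63 CPM under CDH11-/- and 31.6 ± 5.37 CPM under CDH11+/+ (SD, n = 4 each), with a log2 fold change of 0.01 ± 0.12.

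The mu class, cytosolic enzymes with broad action on electrophiles, differed little. Its 7 members summed to 368 ± 54.2 CPM under CDH11-/- and 416 ± 66.5 CPM under CDH11+/+, and 3 of the 6 tested had negative log2 fold changes. Gstm1 (chr3:108012255-108017973, - strand), the most abundant transferase here per length, had 208, 284, 214 and 187 CPM under CDH11-/-, against 183, 293, 313 and 256 CPM under CDH11+/+. Its groups overlapped across almost their whole range, because CDH11-/- replicate 2 was high and CDH11+/+ replicate 1 was the lowest of all 8 (log2 fold change -0.23 ± 0.19, adjusted p = 0.642).

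Gstm5 had 71.9, 77.1, 69.5 and 59.5 CPM under CDH11-/- and 72.2, 88.2, 83.8 and 80.2 CPM under CDH11+/+ (log2 fold change -0.22 ± 0.09, adjusted p = 0.283). CDH11-/- replicate 4 was lowest, and only CDH11+/+ replicate 1 lay within the range of the CDH11-/- libraries. Gstm7 had 3.83, 6.08, 3.91 and 4.01 CPM under CDH11-/- and 3.97, 6.00, 6.65 and 5.47 CPM under CDH11+/+, and the groups overlapped (-0.31 ± 0.21, adjusted p = 0.552). Gstm2 had the narrowest spread of any tested member, with a highest library 1.06 times the lowest under CDH11-/- and 1.13 times under CDH11+/+.

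The pi class was led by Gstp1 (chr19:4035407-4037985, - strand), a cytosolic enzyme that also binds stress kinases. Gstp1 had 124, 126, 111 and 115 CPM under CDH11-/-, against 108, 137, 136 and 140 CPM under CDH11+/+, where replicate 1 was lower than every other library (log2 fold change -0.13 ± 0.09, adjusted p = 0.528). Its neighbour Gstp2, which shares 54.3% of its 50-base windows with Gstp1 and a pseudogene, had 5.91, 8.66, 7.44 and 7.57 CPM under CDH11-/- and 8.21, 7.98, 10.2 and 11.4 CPM under CDH11+/+ (-0.35 ± 0.16, adjusted p = 0.358). In Gstp2 only CDH11-/- replicate 2 exceeded the lowest CDH11+/+ libraries.

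The theta class, which dehalogenates small alkyl halides, had negative log2 fold changes in all 3 members, of -0.28 to -0.11. Gstt1 had 90.3, 89.4, 81.4 and 78.2 CPM under CDH11-/-, against 89.1, 103, 98.7 and 98.2 CPM under CDH11+/+ (-0.20 ± 0.07, adjusted p = 0.230). The CDH11+/+ replicate 1 value lay just under the highest CDH11-/- values, and the other 3 CDH11+/+ libraries lay above them all. Gstt2 had 92.7, 124, 86.2 and 72.0 CPM under CDH11-/- and 81.8, 131, 122 and 119 CPM under CDH11+/+ (-0.28 ± 0.20, adjusted p = 0.582), again with CDH11-/- replicate 2 high and CDH11+/+ replicate 1 low.

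Gstz1, the zeta enzyme that isomerizes maleylacetoacetate in tyrosine breakdown, had 64.5, 79.8, 63.0 and 55.0 CPM under CDH11-/-, against 58.2, 98.8, 94.6 and 82.9 CPM under CDH11+/+. The log2 fold change was -0.35 ± 0.17 (adjusted p = 0.409, over 17 alternatives 0.0377 to 0.731), and the low CDH11+/+ library was replicate 1, without which the adjusted p was 0.0377. Gsto2, an omega enzyme that reduces dehydroascorbate, had the highest fold change of the tested members but few counts: 1.07, 2.78, 1.95 and 1.29 CPM under CDH11-/- and 1.48, 1.44, 0.949 and 1.23 CPM under CDH11+/+ (0.49 ± 0.34, adjusted p = 0.557). Its abundant paralog Gsto1 averaged 52.8 ± 6.58 CPM under CDH11-/- and 52.8 ± 7.73 CPM under CDH11+/+ (SD, n = 4 each), and Gstk1, the kappa enzyme of mitochondria and peroxisomes, had a log2 fold change of -0.12 ± 0.15.

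Mgst1, a membrane-bound GST of the endoplasmic reticulum and mitochondria, had 64.3, 74.7, 65.1 and 66.0 CPM under CDH11-/-, against 86.5, 77.3, 69.4 and 80.5 CPM under CDH11+/+ (-0.22 ± 0.08, adjusted p = 0.244). CDH11+/+ replicate 3 and CDH11-/- replicate 2 made the groups overlap. Mgst3, which also has peroxidase activity, had 52.9, 60.2, 54.4 and 49.7 CPM under CDH11-/- and 48.9, 61.0, 58.0 and 57.2 CPM under CDH11+/+ (-0.05 ± 0.08, adjusted p = 0.822), with full overlap.

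**Figure D2:**
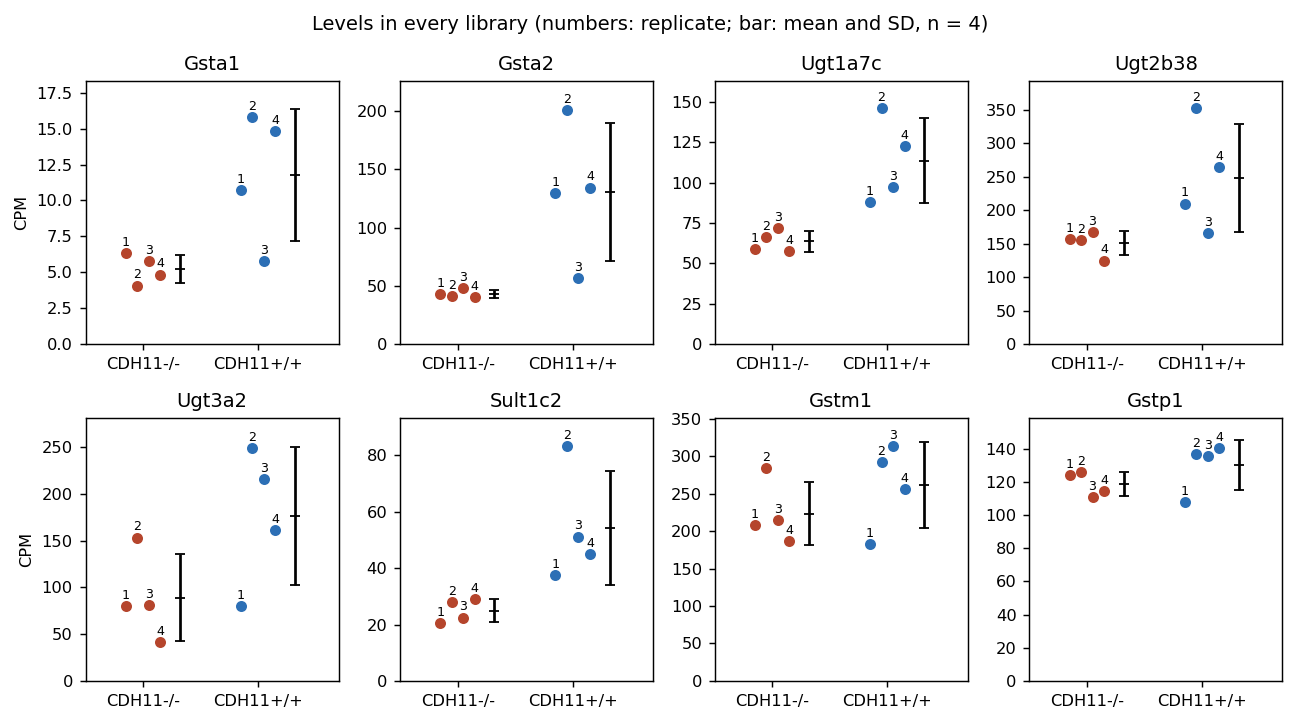
CPM (vertical axes, from 0) of 8 members in each library, CDH11-/- at left and CDH11+/+ at right, with replicate numbers at the points and mean and SD (n = 4) as bars; the members were picked after their values were seen. Gsta2, Ugt1a7c and Sult1c2 show no overlap between groups, whereas the CDH11+/+ replicate 1 point lies among the CDH11-/- points in Ugt3a2 and below them in Gstm1.

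The UGT1A enzymes conjugate bilirubin, phenols and many drugs, and their genes are built at a single locus on chromosome 1: each has its own first exon, which sets what it binds, spliced to a common set of later exons. The 9 members are shown by the last 30 bases of their own first exon in lower case and the first 30 bases of the shared second exon in capitals (GENCODE transcripts on GRCm38, + strand, shared part at chr1:88215044-88215073), because only reads that reach the lower-case side can tell the genes apart.
Ugt1a1: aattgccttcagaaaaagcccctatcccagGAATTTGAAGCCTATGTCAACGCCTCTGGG
Ugt1a10: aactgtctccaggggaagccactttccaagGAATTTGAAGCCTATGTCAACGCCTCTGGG
Ugt1a2: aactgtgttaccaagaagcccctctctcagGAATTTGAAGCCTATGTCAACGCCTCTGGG
Ugt1a5: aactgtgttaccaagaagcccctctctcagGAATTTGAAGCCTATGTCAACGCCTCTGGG
Ugt1a6a: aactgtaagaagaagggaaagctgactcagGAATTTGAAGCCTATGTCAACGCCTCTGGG
Ugt1a6b: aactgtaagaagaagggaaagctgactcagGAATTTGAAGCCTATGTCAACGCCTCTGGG
Ugt1a7c: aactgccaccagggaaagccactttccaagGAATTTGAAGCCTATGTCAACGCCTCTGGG
Ugt1a8: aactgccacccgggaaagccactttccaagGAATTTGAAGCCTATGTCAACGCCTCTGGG
Ugt1a9: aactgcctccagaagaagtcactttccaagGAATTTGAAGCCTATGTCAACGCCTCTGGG
Ugt1a2 and Ugt1a5 differed at 0 of these 30 first-exon bases, as did Ugt1a6a and Ugt1a6b, and Ugt1a7c and Ugt1a8 differed at 1. Between 52.1% and 79.8% of the 50-base windows of each UGT1A gene occur in another gene, and the Ugt1a7c gene model also holds a transcript that uses the first exon of Ugt1a6a, so the share given to each symbol depends on how the authors' software divided reads. All 9 also overlap an antisense gene, Gm20528, and the sources used here do not give whether reads were counted by strand.

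Ugt1a7c, an enzyme for phenols and the UGT1A symbol given most counts, had the smallest p of all members. It had 59.0, 66.3, 71.6 and 57.9 CPM in the CDH11-/- libraries, against 88.1, 146, 97.2 and 123 CPM in the CDH11+/+ libraries. The groups did not overlap. The log2 fold change was -0.83 ± 0.16 with an adjusted p of 0.0600, and over 17 alternatives the adjusted p ran from 2.33e-05 to 0.180, with 5 of them under the threshold. Without CDH11+/+ replicate 1 it was 0.00971.

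Summed over the locus, the counts averaged 122 ± 8.58 CPM under CDH11-/- and 184 ± 40.9 CPM under CDH11+/+ (SD, n = 4 each). Their log2 fold change was -0.59 ± 0.14 (adjusted p = 0.115 in a fit with the sum as a single feature, added after seeing the data; 0.00428 to 0.283 over 17 alternatives). Without CDH11+/+ replicate 1 the sum had an adjusted p of 0.0166. The sum was 128, 128, 124 and 109.9 CPM in the CDH11-/- libraries, below each of the 144, 232, 156 and 202 CPM of the CDH11+/+ libraries.

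The symbol Ugt1a7c held 46.2%, 51.7%, 57.7% and 52.7% of the UGT1A counts under CDH11-/- and 61.0%, 63.0%, 62.3% and 60.6% under CDH11+/+. These shares did not overlap either. Ugt1a10 held 19.98%, 14.5%, 8.85% and 13.6% under CDH11-/- and 6.07%, 7.29%, 12.2% and 6.33% under CDH11+/+, which did overlap. The shares carry the authors' assignment of reads within the locus and were not tested.

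Ugt1a2 had 12.02, 12.02, 6.65 and 12.5 CPM under CDH11-/-, against 14.5, 28.9, 10.2 and 25.4 CPM under CDH11+/+ (-0.88 ± 0.36, adjusted p = 0.339). CDH11+/+ replicate 3 was the low one of its group, as for Gsta1 and Gsta2. Ugt1a6a, a phenol enzyme, and Ugt1a1, the bilirubin enzyme, had log2 fold changes of -0.18 ± 0.13 and 0.24 ± 0.55. Ugt1a1 had 2.28, 5.62, 2.11 and 0.454 CPM under CDH11-/- and 1.85 to 2.78 CPM under CDH11+/+. Only CDH11-/- replicate 2 lay above the CDH11+/+ range. Ugt1a9 had the second most negative fold change of all members on few counts (-1.22 ± 0.66, 0 to 2.01 CPM under CDH11-/- and 1.60 to 4.67 CPM under CDH11+/+). Values of the sparser symbols moved between single libraries: Ugt1a8 had 0 CPM in CDH11+/+ replicate 3 and 7.60 CPM in CDH11+/+ replicate 2.

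The UGT2 enzymes conjugate steroids and bile acids, and their genes lie in a cluster on chromosome 5. Ugt2b38 (chr5:87409942-87424203, - strand) had 157, 155, 167 and 125 CPM under CDH11-/-, against 209.9, 352, 165 and 264 CPM under CDH11+/+. CDH11+/+ replicate 3 lay among the CDH11-/- values and the other 3 CDH11+/+ libraries lay above them (-0.71 ± 0.23, adjusted p = 0.235, over 17 alternatives 0.0140 to 0.443). Ugt2b34 had 27.5, 22.6, 26.8 and 30.5 CPM under CDH11-/- and 35.7, 45.2, 25.8 and 40.3 CPM under CDH11+/+, with the same low library (-0.45 ± 0.16, adjusted p = 0.245).

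Ugt2b37 had a positive log2 fold change. It had 86.2, 109, 91.4 and 86.7 CPM under CDH11-/-, against 48.3, 98.6, 82.0 and 93.2 CPM under CDH11+/+, where replicate 1 was the lowest (0.21 ± 0.21, adjusted p = 0.714). The genes on either side of it, Ugt2b5 and Ugt2a3, had log2 fold changes of -0.02 ± 0.22 and 0.11 ± 0.36. In Ugt2b5 41.7% of the 50-base windows, like 37.4% of those of Ugt2b38 and 18.3% of those of Ugt2b37, occur in another gene.

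Of the UGT3 enzymes, whose human forms use sugars other than glucuronic acid, both members varied widely among mice of the same label. Ugt3a2 (chr15:9335550-9370955, + strand) had 80.0, 153, 81.1 and 41.9 CPM under CDH11-/-, against 80.0, 249, 216 and 161 CPM under CDH11+/+ (-0.99 ± 0.49, adjusted p = 0.434). Ugt3a1 had 13.8, 39.8, 15.6 and 5.68 CPM under CDH11-/- and 8.21, 47.5, 47.3 and 26.1 CPM under CDH11+/+ (-0.79 ± 0.72, adjusted p = 0.689). In both genes CDH11-/- replicate 2 was high and CDH11-/- replicate 4 was low, and CDH11+/+ replicate 1 lay among the CDH11-/- values. Ugt3a1 had a highest library 7.01 times the lowest under CDH11-/- and 5.78 times under CDH11+/+.

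Among the sulfotransferases, 5 of 6 tested members had negative log2 fold changes, with a median of -0.39. Sult1c2 (chr17:53829637-53846339, - strand), a phenol-type sulfotransferase whose transcripts shared 0 of their 50-base windows with another gene, had 20.6, 27.9, 22.4 and 28.9 CPM under CDH11-/-, against 37.6, 83.3, 51.2 and 44.9 CPM under CDH11+/+. Every CDH11-/- library lay below every CDH11+/+ library. The log2 fold change was -1.13 ± 0.26 (adjusted p = 0.120), with an adjusted p of 0.0377 without CDH11+/+ replicate 1 and a range of 8.05e-05 to 0.303 over 17 alternatives.

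Sult1d1 (chr5:87554645-87569027, - strand), which sulfates catecholamines in mice, was the most abundant sulfotransferase. It had 114, 214, 147 and 120 CPM under CDH11-/-, against 115, 250.5, 234 and 172 CPM under CDH11+/+, so that CDH11-/- replicate 2 exceeded 2 of the CDH11+/+ libraries (-0.38 ± 0.31, adjusted p = 0.647). Sult4a1, a brain-enriched member with no known substrate, had 6.38, 5.11, 3.59 and 7.80 CPM under CDH11-/- and 8.86, 8.51, 6.80 and 8.64 CPM under CDH11+/+ (-0.53 ± 0.22, adjusted p = 0.301). Sult5a1 alone had a positive log2 fold change, 0.42 ± 0.30, at 1.23 to 2.80 CPM under CDH11-/- and 1.14 to 1.93 CPM under CDH11+/+.

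Per kilobase of exon, a rough scale for comparing genes, Gstm1 had the highest mean level over all 8 libraries, 164 CPM per kb. It was followed by Ugt2b38 at 105, Gstp1 at 80.4, Gsta2 at 73.8 and Sult1d1 at 69.5 CPM per kb. The length was that of all annotated exons of a gene merged, so a long gene model lowers the value. The order also depends on how reads of shared sequence were assigned. The 50 members together held 0.180 ± 0.0214% of counts under CDH11-/- and 0.229 ± 0.0359% under CDH11+/+ (SD, n = 4 each). Gsta2 stood at 36.7 CPM per kb under CDH11-/- and 111 CPM per kb under CDH11+/+. By mean level it came next above Mgst1 (33.5 CPM per kb) in the CDH11-/- libraries and next below Gstm1 and Ugt2b38 in the CDH11+/+ libraries.

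**Figure D3:**
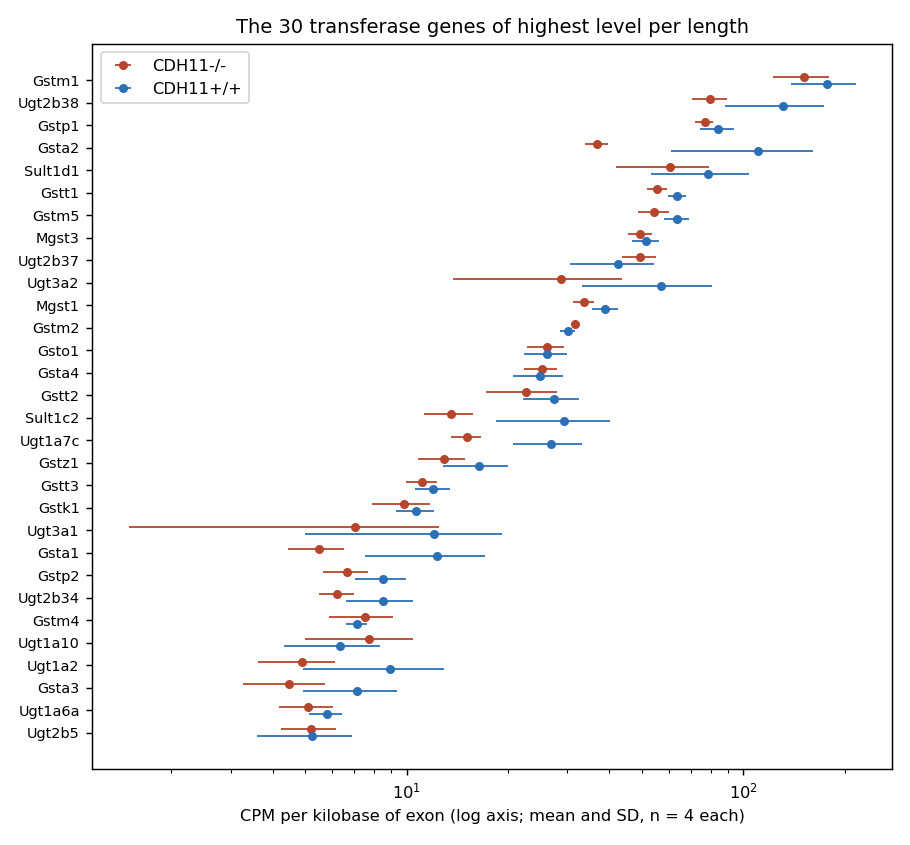
Mean CPM per kilobase of exon (log axis) with SD (n = 4) of the 30 members of highest level, CDH11-/- above CDH11+/+ within each gene. Gstm1 leads at 164 CPM per kb over all libraries, and the widest gaps between the labels are those of Gsta2, Sult1c2, Ugt3a2 and Gsta1.

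The members also varied together among mice that carry the same label. CDH11-/- replicate 2 was the highest of its group for 23 of 44 tested members and CDH11-/- replicate 4 the lowest for 20. CDH11+/+ replicate 2 was the highest of its group for 25 and CDH11+/+ replicate 1 the lowest for 22. Such counts over all genes are not given here, so the pattern is not shown to be particular to the members. The mean deviation of the 24 proximal tubule markers, on the log2 scale relative to each gene's mean, was likewise highest in replicate 2 of each label, 0.13 for CDH11-/- and 0.96 for CDH11+/+, and lowest in CDH11-/- replicate 4, -0.89, and CDH11+/+ replicate 1, -0.57. The part of proximal tubule content in the members' differences was not tested.

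Members differed in where CDH11+/+ replicate 1 lay. Its Gsta2 (130 CPM), Ugt1a7c (88.1 CPM) and Sult1c2 (37.6 CPM) were above every CDH11-/- library, as the lack of overlap requires. The proximal tubule markers were split in the same way. The mean marker deviation of CDH11+/+ replicate 1, -0.57, was below those of CDH11-/- replicates 1, 2 and 3 (-0.46, 0.13 and -0.33). Yet 9 of the 24 markers had all 4 CDH11-/- libraries below all 4 CDH11+/+ libraries, against 3.74% of all genes tested. In CDH11+/+ replicate 1, Ugt3a2 (80.0 CPM), Sult1d1 (115 CPM) and Gstm1 (183 CPM) were instead at or below the middle of the CDH11-/- libraries. CDH11+/+ replicate 3, with a marker deviation of 0.67, was the low library of its group for 12 of 44 tested members, among them Gsta1, Gsta2, Ugt1a2, Ugt2b34 and Ugt2b38. It was likewise the low one for 4 of the 24 markers (Slc5a12, Gatm, Slc4a4 and Slc6a19).

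**Figure D4:**
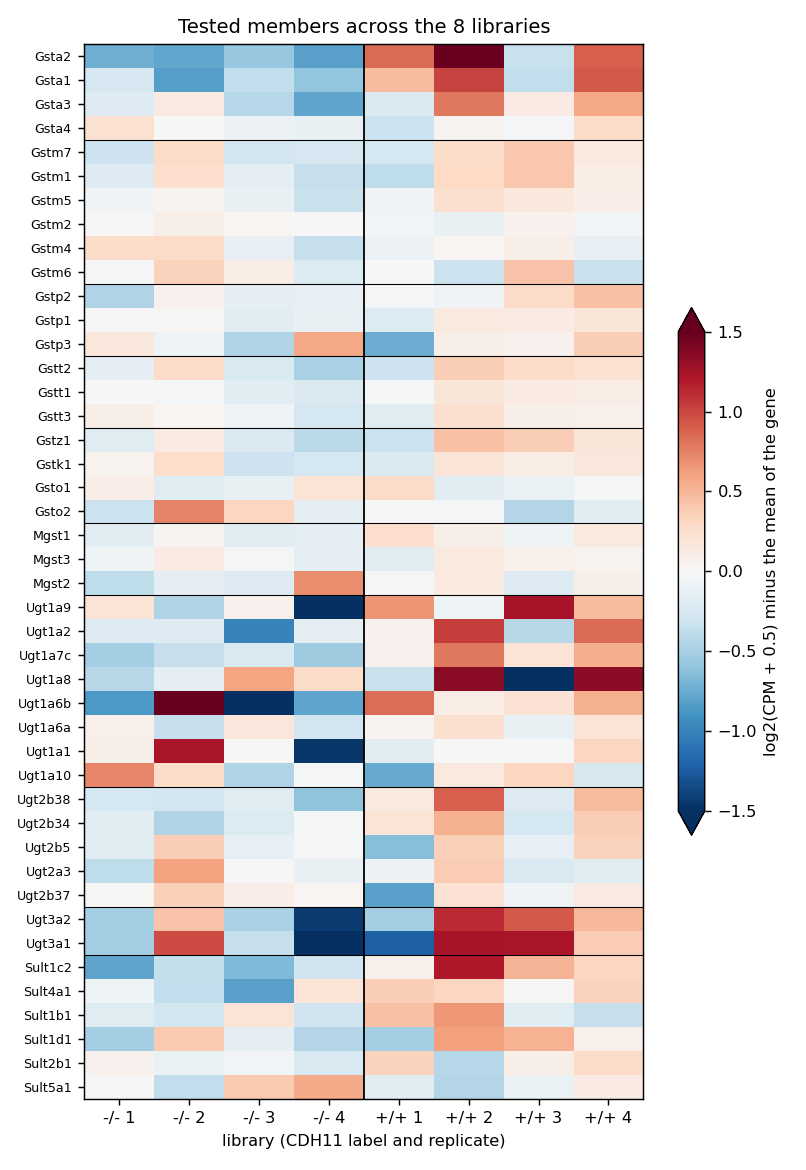
Log2(CPM + 0.5) of the 44 tested members in each library minus the mean of the gene, colour-coded, with CDH11-/- columns left of CDH11+/+ columns and lines between classes. Gsta2 and Ugt1a7c are blue in the 4 CDH11-/- columns, and Gsta2 also in CDH11+/+ replicate 3; Ugt3a1 and Ugt3a2 are red in CDH11-/- replicate 2 and blue in CDH11+/+ replicate 1.

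The 7 pathway lists cover conjugate supply, processing and export, the NRF2 pathway and regulators of conjugation genes. They were chosen with earlier results of these data known. Of their 81 tested genes 4 passed the threshold, 3 lower and 1 higher, against the 0.347% and 0.372% of all genes given above. Negative log2 fold changes were found in 62 of the 81, and the median was -0.20. Gsr, the reductase that regenerates glutathione, fell: it had 83.2, 77.9, 83.5 and 84.5 CPM in libraries labelled CDH11-/-, all below the 101, 107, 97.6 and 103 CPM under CDH11+/+ (-0.31 ± 0.06, adjusted p = 0.0306). Abcg2, an apical pump for sulfate and glucuronide conjugates, fell, with 91.1, 104, 105 and 84.8 CPM under CDH11-/- and 118, 162, 134 and 138 CPM under CDH11+/+ (-0.52 ± 0.10, adjusted p = 0.0447). Srxn1, sulfiredoxin, an NRF2 target that repairs oxidized peroxiredoxins, fell as well, to 58.2 ± 7.06 CPM under CDH11-/-, against 78.4 ± 3.86 CPM under CDH11+/+ (-0.43 ± 0.09, adjusted p = 0.0488).

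Ahr, the aryl hydrocarbon receptor that induces several GST and UGT1A genes, rose, with 21.7, 22.0, 22.2 and 25.1 CPM under CDH11-/- and 18.3, 14.2, 14.1 and 16.2 CPM under CDH11+/+ (0.54 ± 0.10, adjusted p = 0.0414). Each of these 4 calls held in edgeR without CDH11+/+ replicate 1 (adjusted p 0.00583 to 0.0157) and was lost without each of the other 7 libraries in turn, with adjusted p of 0.0502 to 0.123 for Gsr, 0.0651 to 0.167 for Abcg2, 0.0666 to 0.173 for Srxn1 and 0.0765 to 0.136 for Ahr. Over all 17 alternatives Gsr and Abcg2 were called in 7, Srxn1 in 5 and Ahr in 8. The 4 calls were also lost with limma on the deposited normalized values (adjusted p = 0.0802 for Gsr, 0.0611 for Abcg2, 0.129 for Srxn1 and 0.0696 for Ahr) and with the authors' factors as offsets (0.0740, 0.0607, 0.129 and 0.0709 in the same order). With edgeR without robust moderation Abcg2 and Srxn1 were lost (0.0578 and 0.0628), with library size alone Gsr and Srxn1 (0.0828 and 0.0610), and with DESeq2 size factors Srxn1 (0.0574). The 4 libraries of the labels did not overlap in any of the 4 genes, where 3.74% of all genes were wholly lower and 3.59% wholly higher. These 4 genes were picked by the same comparison, so their lack of overlap is no separate support for the calls.

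By list, glutathione synthesis and recycling had 1 of 15 tested genes called lower (Gsr) and a median log2 fold change of -0.20; Gpx1, the abundant glutathione peroxidase, had -0.40 ± 0.09 (adjusted p = 0.0744, and 0.0177 without CDH11+/+ replicate 1). Mercapturate processing had the lowest median of the 7 lists, -0.53, with 0 of 10 called. Its 2 genes of smallest p were Nat8f2, an acetyltransferase family member (-0.84 ± 0.26, adjusted p = 0.218, and 0.0409 without that library), and Dpep1, a brush border dipeptidase (-0.60 ± 0.21, adjusted p = 0.258, and 0.0206 without it). That edgeR fit, without CDH11+/+ replicate 1, called 3.17% of all genes lower and 3.08% higher. Without each of the other 7 libraries in turn, edgeR called none of Gpx1, Nat8f2 and Dpep1. Their adjusted p was then 0.110 to 0.212 for Gpx1, 0.116 to 0.497 for Nat8f2 and 0.323 to 0.485 for Dpep1. UDP-glucuronate supply had 0 of 7 called and a median of -0.13, with Ugp2, which makes UDP-glucose, at -0.20 ± 0.08 (adjusted p = 0.297) and Uxs1, which uses up UDP-glucuronate, at -0.13 ± 0.07 (adjusted p = 0.425).

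Sulfate donor supply had 0 of 10 called and a median of -0.20. Its Slc13a1, the proximal tubule sulfate transporter, had 212, 242, 249 and 185 CPM under CDH11-/-, all below the 407, 492, 294 and 386 CPM under CDH11+/+ (-0.83 ± 0.15, adjusted p = 0.0540, and 0.0107 without CDH11+/+ replicate 3), and Arsb, a lysosomal sulfatase, had -0.38 ± 0.10 (adjusted p = 0.108, and 0.0169 without CDH11+/+ replicate 1). For each of these genes, edgeR made no call without any of the other 7 libraries. The adjusted p was then 0.0554 to 0.167 for Slc13a1 and 0.169 to 0.263 for Arsb. Conjugate efflux had 1 of 10 called lower (Abcg2) with a median of -0.25, and its Abcc4, another conjugate pump, had -0.22 ± 0.07 (adjusted p = 0.178).

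The NRF2 pathway had 1 of 19 called lower (Srxn1) with a median of -0.13, and Prdx1, a peroxiredoxin, had -0.25 ± 0.07 (adjusted p = 0.128, and 0.0378 without CDH11+/+ replicate 1). Without each of the other 7 libraries in turn, edgeR did not call Prdx1 (adjusted p 0.146 to 0.351). Regulators of conjugation genes had 1 of 17 called higher (Ahr) with a median of -0.15. Ppara, a lipid-sensing receptor of the proximal tubule, had -0.64 ± 0.14 (adjusted p = 0.0735, with 0.0377 without CDH11+/+ replicate 1 and 0.0396 without CDH11-/- replicate 3). Without each of the other 6 libraries in turn, edgeR did not call Ppara (adjusted p 0.109 to 0.216). The symbols of the NRF2 and glutathione lists share several members, so each gene was counted once in the total of 81.

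Motifs were looked for on both strands of the 250 bases before the RefSeq start of 45 members; matches of different motifs may share bases. The antioxidant response element, searched as TGACNNNGC, was in 3 member windows, those of Gsta3, Gstm5 and Mgst1 (6.67%, against 10.15% of 27025 windows of all genes). The xenobiotic response core GCGTG, which the aryl hydrocarbon receptor binds, was in 9 of 45, among them Gsta2, Gstm1 and Gstp1 (against 28.21% of all). The HNF1 half-site GTTAAT was in 8, among them Ugt1a9, Ugt3a1 and Sult1d1 (17.78%, against 6.52%). A match is a description of these letters and not a bound site.

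The members too low to test included 3 that were almost confined to a single library. Ugt2b1 had counts of 0, 32, 5 and 0 under CDH11-/- and 0 in each CDH11+/+ library. Ugt2b36 had 0, 34, 3 and 0 under CDH11-/- and 0, 0, 0 and 1 under CDH11+/+, and Sult2a8, a hydroxysteroid sulfotransferase of mouse liver, had 0, 22, 4 and 0 under CDH11-/- and 0, 0, 0 and 1 under CDH11+/+. The same CDH11-/- replicate 2 held 4562 counts of Alb, the liver's albumin gene, against 9, 386 and 79 in the other CDH11-/- libraries and 19, 37, 19 and 131 in the CDH11+/+ libraries. The summed level of the 8 liver and adrenal markers was 3.76 to 425 CPM under CDH11-/- and 19.5 to 48.2 CPM under CDH11+/+, with Cyp11b2 at 0, and its part in these 3 genes was not tested. A count of 0 allows a level of up to 0.158 to 0.277 CPM (3 counts) in these libraries, counting error only.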

How the data were processed

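Kidney RNA of 8 mice was grouped by labelled genotype, 4 CDH11-/- and 4 CDH11+/+. The authors deposited whole-number counts per Ensembl gene and a second table of normalized counts, here called a signal. The submitters' processing notes name mm10, DRAGEN and DESeq2, without versions; how reads were given to genes was not given in the sources used here. Each value of the deposited signal is the count over a factor that differs between genes: 33.1% of factors were within 1% of their library's median. There were 0 columns of other samples. Per the labels' protocols the library kit was directional. Names and coordinates came from GENCODE M21 on GRCm38, which named 42170 of 42256 identifiers, and promoter sequences from RefSeq GRCm38.p6.

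Counts were tested with edgeR 4.0.16 in R 4.3.3 (quasi-likelihood, TMM, low-count filter, robust moderation, genotype as the only term) over 15852 genes, with Benjamini-Hochberg adjustment at 0.05. Standard errors are the absolute log2 fold change over the square root of F. The common biological coefficient of variation was 13.5%. The alternatives used other scalings, filters, DESeq2 1.42.0, limma-voom with sample quality weights (limma 3.58.1), the deposited signal as log2(value + 1) in limma, its factors as offsets, and each library left out. Scripts were tested on simulated data. Depth was 10675309 to 18539479 counts, with p = 0.0857 between labels by an exact permutation test (two-sided, 4 libraries each, smallest possible p 0.0286), so genes near 1 CPM rest on few counts. Nothing in the labels gives litters or batches, and replicate numbers, in order of deposit, only name libraries.

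Members, pathway lists and marker lists (16 lists, 174 symbols, 173 matched) were chosen with earlier results of these data known. Values of every library are given for the 2 tested members of smallest p in each class, the 3 of highest level per length in each superfamily, and, of each pathway list, the called genes and the 2 of smallest p are named; Gsta3 and other members named beyond this were chosen after their values were seen. Shared sequence was measured as 50-base windows of GENCODE transcripts that occur in another gene. 1 sulfotransferase symbol is not reported here.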

Additional observations from a re-analysis of the deposited data

Results flagged for a closer look

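A library was singled out where its gap to the nearest other library of its group took up more of the group's range than Dixon's limit at 95% for 4 values. Of 98 groups of member values 12 met this, where chance gives about 1 in 20 for values of normal spread. That rate does not apply to the 6 groups whose other 3 libraries were at or near 0 CPM, among them 2 with a single count against 0, where the limit is passed by construction. CDH11-/- replicate 2 was the high library in 6 of the 12 groups singled out. Its Gstm7 was 6.08 CPM, against 3.83 to 4.01 CPM in the other CDH11-/- libraries, and its Mgst1 was 74.7 CPM, against 64.3 to 66.0 CPM. Its Ugt1a6b was 4.01 CPM, against 0 to 0.379 CPM. Its Sult2a8, Ugt2b1 and Ugt2b36 were 1.42, 2.07 and 2.20 CPM, with at most 0.211, 0.264 and 0.158 CPM in the others. Mgst2 was high in CDH11-/- replicate 4, at 4.24 CPM against 1.75 to 2.13 CPM in the others. Ugt1a2 was low in CDH11-/- replicate 3, at 6.65 CPM against 12.02 to 12.5 CPM.

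Under CDH11+/+, Gstp1 was low in replicate 1, at 108 CPM (107.9) against 136 to 140 CPM in the others, and Sult4a1 was low in replicate 3, at 6.80 CPM against 8.51 to 8.86 CPM. Sult2a8 and Ugt2b36 each had a single count, 0.0771 CPM, in CDH11+/+ replicate 4 and 0 in the others.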

How the results depend on the processing

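Directions of the 23 named members and 2 sums held throughout, while calls depended on the tool, its settings and single libraries. Directions of the other tested members under the alternatives are not given here. Over 17 alternatives, 425 values were recomputed for the 23 named members and 2 sums: 404 kept their side of the threshold, 21 passed it newly and 0 changed direction. No alternative called a member higher. Members called lower, 0 in the fit reported, were 5 with DESeq2, 2 with limma-voom with quality weights, 2 with edgeR without robust moderation (where 0.385% of all genes were called lower), 1 with library size alone (0.328%), and 0 to 3 when a library was left out. They were 0 with UGT1A members left out or, in an alternative added after seeing the data, with UGT1A counts and those of Gsta1 and Gsta2 summed. The median over tested members stayed between -0.31 and -0.15. Of all genes tested 114 were called, against 208 with no filter on low counts, 535 with DESeq2, 679 with limma-voom with quality weights, 54 with limma on the deposited signal and 50 with its factors as offsets; leaving out a library gave 26 to 1004, the highest without CDH11+/+ replicate 1 and the lowest without CDH11+/+ replicate 4. The cause was not tested. No paired analysis was possible because the labels give the mice no replicate numbers shared between groups. Members under about 1 CPM are limited by counting, and the UGT1A, Gsta1 with Gsta2, Gstp and Ugt2b symbols by how reads of shared sequence were assigned.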
